A study of Mus musculus with 12 samples.

Results

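The NRF2 antioxidant response genes were followed in the liver of mice with diet-induced obesity after sleeve gastrectomy or sham surgery. The group held 10 genes, chosen by symbol from the 46078 genes of the count table: Nfe2l2, Keap1, Nqo1, Gclc, Gclm, Srxn1, Txnrd1, Hmox1, Gsr and Slc7a11. Each symbol matched 1 row of the table. The mice were C57BL/6 per the labels (C57BL/6J males in the study's methods), 21 weeks old and made obese on a high fat diet. Liver RNA was taken on day 16 after surgery following 5 hours without food. VSG mice (n = 4) had most of the stomach removed. Sham-WM mice (n = 4) had sham surgery and were then given restricted food, so that their weight followed that of the VSG mice. Sham-Ad lib mice (n = 4) had the sham operation and could then eat as much as they chose. Each library came from 1 mouse, and VSG, Sham-WM and Sham-Ad lib are the names used below. The comparison of VSG with Sham-WM asks what differs at an equal weight, and those with Sham-Ad lib ask what each route to weight loss changes.

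NRF2, encoded by Nfe2l2, is a transcription factor that switches on genes against oxidants and reactive chemicals. In resting cells KEAP1 holds NRF2 and passes it to a ubiquitin ligase for breakdown, and oxidants or electrophiles that modify KEAP1 release it. Free NRF2 pairs with small MAF proteins on antioxidant response elements and raises the enzymes of glutathione and thioredoxin chemistry, of quinone reduction and of haem breakdown. In liver the pathway is best known for defence against drugs and toxins. Hmox1 is also strongly made by Kupffer cells, the resident macrophages of the liver, which take up old red blood cells.

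Between 15122520 and 19384076 reads were counted on genes per library. Levels are given as CPM, the count of a gene scaled to the library total after TMM, a correction for differences in RNA composition between libraries. In a library 1 count was worth between 0.051 and 0.0753 CPM, so 3 counts, the floor below which no level was read, lay between 0.153 and 0.226 CPM. Albumin (Alb), the main product of hepatocytes, took between 4.89% and 12.2% of all counts. The title of each sample holds an animal number that also stands in the library name, and groups were taken from that number. A second label field pairs the titles with libraries of other animals, and only 4 of the 12 libraries have the same group by both. Grouped by that field, 0 of 13054 genes passed the edgeR threshold in any comparison, with 465, 715 and 158 genes at an unadjusted p under 0.05 in the order VSG to Sham-Ad lib, Sham-WM to Sham-Ad lib and VSG to Sham-WM. Index numbers of the libraries formed 1 unbroken block per group, so any effect of library order and the treatment cannot be told apart.

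Libraries 18F, 4F and 11F stood apart from their groups. In VSG, library 18F had 9.15% of its counts on Alb, against between 4.89% and 5.71% in the others. In Sham-Ad lib, library 4F had a summed level of 8 Kupffer cell markers of 465 CPM, against between 150 and 196 CPM in the others. In VSG, library 11F had the lowest total and the lowest TMM factor of all 12 (0.8787, against between 0.946 and 1.037 in the others), and it had the highest VSG level of Nqo1, Gpx1, Gpx4, Prdx5 and Mgst1. Results whose call changed when 1 of these was left out are marked.

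The promoters of the members were searched for the site that NRF2 binds. RefSeq promoters of build GRCm38.p6, the assembly also called mm10, hold 300 bases each, 250 before and 50 after a start of transcription, and matched 7 members with 9 promoters. Promoters of Gclc, Hmox1 and Gsr were not analysed here. The motif searched was TGACNNNGC, the core of the antioxidant response element, on both strands (GCNNNGTCA on the other). A form of it, TGACTCAGC, also contains the AP-1 motif TGACTCA. The motif stood in 12.4% of all 32851 promoters, in 4 of the 9 member promoters and in promoters of 18 of the 65 other pathway genes that matched (27.7%, beside 14.0% of all genes with a promoter in the table). Among members it was in Nfe2l2, Gclm, Srxn1 and 1 of 3 promoters of Txnrd1, and these letters were not in the windows of Keap1, Nqo1 and Slc7a11. A match is a description of the letters only. The stretches with a match are shown for the 4 members, and for Maff and Gsta3, 2 genes of the pathway lists picked after their values were seen, with the motif in capitals.
Nfe2l2: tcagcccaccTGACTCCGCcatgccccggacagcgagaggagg
Gclm: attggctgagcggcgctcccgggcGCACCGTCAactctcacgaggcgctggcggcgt
Srxn1: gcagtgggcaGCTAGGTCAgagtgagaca
Txnrd1: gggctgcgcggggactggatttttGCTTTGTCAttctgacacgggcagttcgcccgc
Maff: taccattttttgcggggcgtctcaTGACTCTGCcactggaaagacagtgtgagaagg
Gsta3: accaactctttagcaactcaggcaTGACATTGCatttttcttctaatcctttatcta
The Nfe2l2 stretch is chr2:75704871-75704913, minus strand, upstream of the gene and inside an exon of E030042O20Rik on the plus strand, with the motif at -240 from the start. All others lie on the plus strand. The Gclm stretch is chr3:122245399-122245455, in no annotated gene, with the motif at -134. The Srxn1 stretch is chr2:152105542-152105570, in the untranslated part of the Srxn1 exon, at 29 bases after the start. The Txnrd1 stretch is chr10:82859090-82859146, inside the gene but in no exon, at -92 from an internal start. The Maff stretch is chr15:79346485-79346541, at -112, and the Gsta3 stretch is chr1:21240440-21240496, at -121, both in no annotated gene.

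Changes were tested with the quasi-likelihood test of edgeR across all genes. A gene was called changed at an adjusted p under 0.05 over the 13054 genes that passed a filter on low counts. Of the 10 members 9 passed the filter, each with at least 78 counts in every library. Slc7a11 did not pass. Hmox1 was higher in VSG livers than in Sham-WM livers, and Gclc and Txnrd1 were lower. Txnrd1 was higher in Sham-WM than in Sham-Ad lib. Nfe2l2, Keap1, Nqo1, Gclm, Srxn1 and Gsr were not called in any of the 3 comparisons.

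For VSG against Sham-Ad lib, edgeR called 0 of 9 members, where it called 0.751% of all genes (0.467% higher and 0.283% lower). At an unadjusted p under 0.05 there was 1 member, Hmox1 (11.1%, beside 24.1% of all genes). DESeq2 also called 1 member, Hmox1, and 8.4% of all genes. For Sham-WM against Sham-Ad lib edgeR called 1 member, which was higher, and 6.99% of all genes (3.53% higher and 3.45% lower). DESeq2 called 2 members there, Gclc and Txnrd1, and 10.4% of all genes. For VSG against Sham-WM edgeR called 3 members, 1 higher and 2 lower, and 26.9% of all genes (15.0% higher and 11.9% lower). The same 3 were called by DESeq2, which called 27.8% of all genes. DESeq2 shares of all genes, here and below, are of the genes left by its own filter, 14601, 13753 and 15025 in this order of comparisons. Of the 13054 genes tested with edgeR, DESeq2 called 1170, 1421 and 3974. These shares stand beside each DESeq2 count below. The study removed unwanted variation, which its methods ascribe to batch, in a form that they do not state. The main fit here did not remove it, and the labels name no batch. With 2 RUVs factors, estimates of unwanted variation from replicates, 0 of these 3 calls were held. With 2 RUVr factors, estimated from residuals, all 3 were, so the calls depend on that step. The residuals were those of the same group fit, so RUVr mainly takes out spread within groups and was unlikely to undo a call. RUVs used every tested gene as a control, so its factors can also take up differences between treatments. The 2 forms are therefore not equal checks. With RUVs the log2 fold changes of Gclc (-0.21, main fit -0.59) and Hmox1 (0.38, main fit 1.78) were smaller in size. That of Txnrd1 was not (-0.42, main fit -0.37). The 1 and 3 members that edgeR called in Sham-WM against Sham-Ad lib and in VSG against Sham-WM were 11.1% and 33.3% of the 9 tested. Groups of libraries did not overlap in CPM for 0 members in VSG against Sham-Ad lib, beside 9.21% of all genes. They did not overlap for 3 members (Keap1, Gclc and Txnrd1) in Sham-WM against Sham-Ad lib, beside 17.6%, and for 3 members (Gclc, Txnrd1 and Hmox1) in VSG against Sham-WM, beside 26.2%. The median log2 fold change of the 9 members was 0.16, 0.01 and 0.02 in these comparisons in that order, against 0.03, 0.00 and 0.03 for all genes. All 3 comparisons rest on the same 12 libraries, and each group enters a pair of them. A library of the group outside a comparison acts on it only through the shared estimate of spread, the scaling and the filter.

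**Figure D1:**
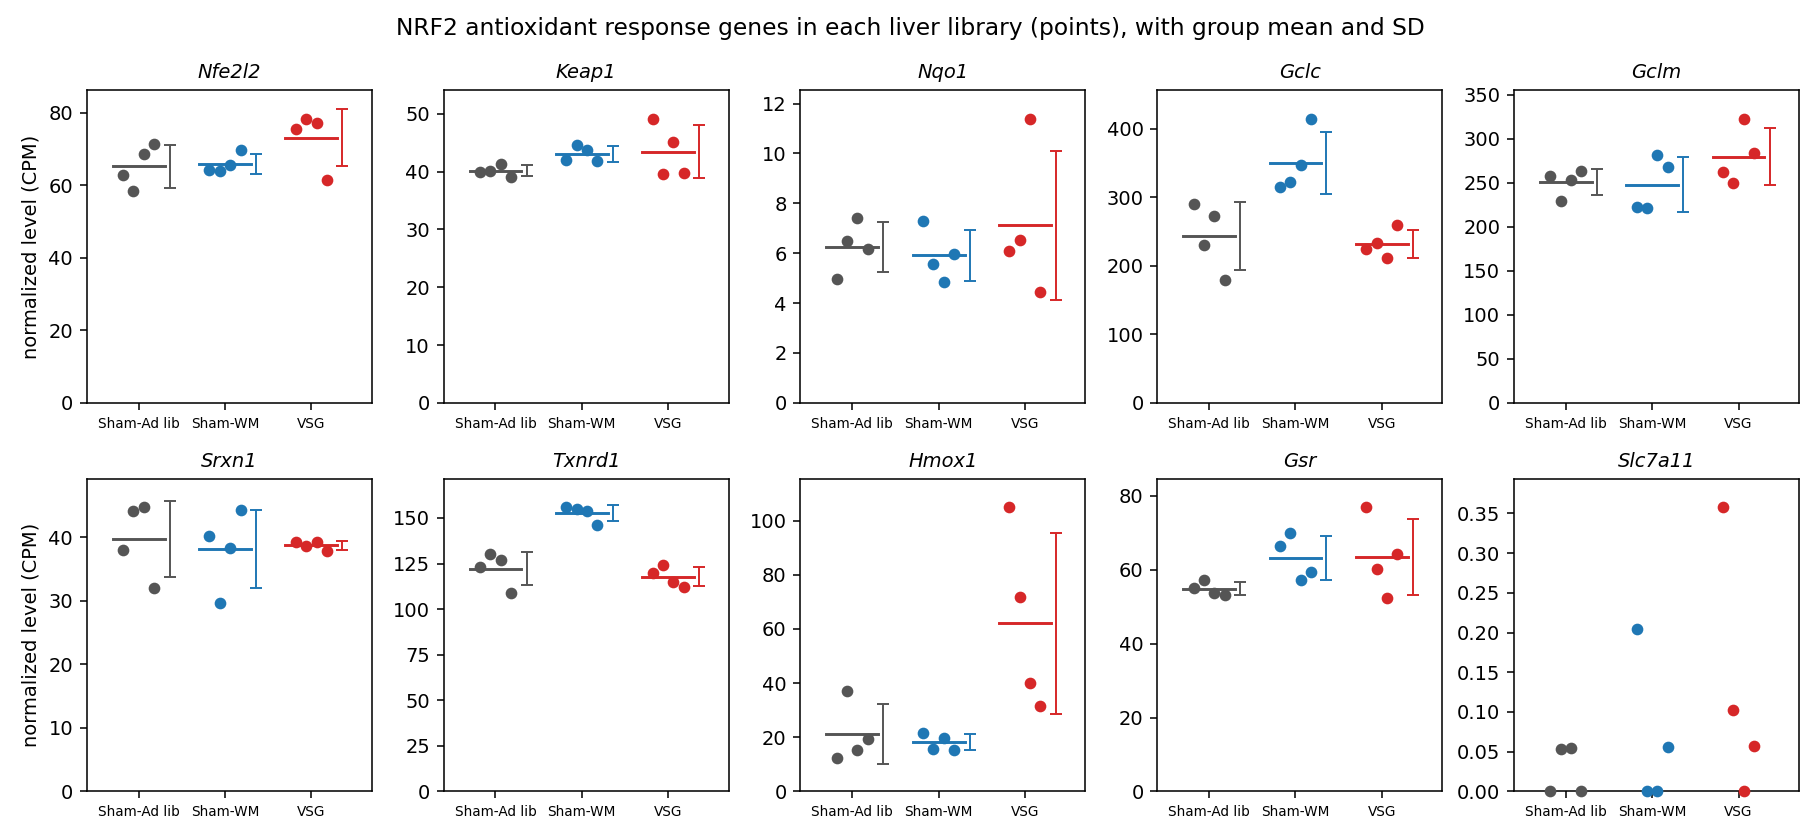
Level of each of the 10 genes (vertical axis, CPM) in the 4 libraries of each group (points), with the group mean (line) and SD (bar) except for Slc7a11, which had too few counts for either. Gclc and Txnrd1 are higher in all 4 Sham-WM libraries than in any other library, and Hmox1 is highest in VSG, where it runs from 31.5 to 105.4 CPM.

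The order of the members is given per length of their exons (CPM per kb, mean and SD over 12 libraries). Gclc was the highest at 73.1 ± 17.6 CPM per kb. Gclm followed at 41.2 ± 4.61, and the ranges of the pair overlapped. Next came Gsr at 22.0 ± 2.74, Hmox1 at 19.3 ± 16.0, Txnrd1 at 18.5 ± 2.44, Nfe2l2 at 17.9 ± 1.71, Srxn1 at 13.8 ± 1.62 and Keap1 at 9.0 ± 0.641 CPM per kb, with ranges that overlapped from each to the next. Nqo1 had 4.14 ± 1.16, below every value of Keap1 but with a highest value of 7.32 that passed the lowest of Hmox1 (7.08), and Slc7a11 was lowest, with at most 6 counts in a library. The place of Hmox1 depended on the group and its range of 7.08 to 60.2 reached that of Gclc. Its mean was 35.5 CPM per kb in VSG, above Gsr (23.0), whereas in Sham-WM (10.3) and in Sham-Ad lib it lay below Srxn1. Within the genes, Hmox1 varied most among the 9 tested over the 12 libraries, with a coefficient of variation of 83.0%, and Keap1 least, with 7.13%.

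Neither the factor nor its sensor was called in a comparison. Mean levels of Nfe2l2 (± SD, 4 mice a group) were 65.2 ± 5.86 CPM for Sham-Ad lib, 65.9 ± 2.68 CPM for Sham-WM and 73.1 ± 7.90 CPM for VSG. Its log2 fold change in VSG was 0.16 against Sham-Ad lib (95% interval -0.06 to 0.39) and 0.15 against Sham-WM (-0.07 to 0.37), and the first interval allows a rise of up to 1.31-fold. In VSG 3 libraries lay between 75.4 and 78.4 CPM and 18F at 61.4 CPM. Keap1 stayed between 39.1 and 49.2 CPM over all 12 libraries. The 4 Sham-WM libraries, at 41.8 to 44.6 CPM, all lay above the 4 Sham-Ad lib libraries, at 39.1 to 41.4 CPM, but the log2 fold change was 0.10 with an edgeR adjusted p of 0.576. Exons of Keap1 share 510 bases with the antisense gene Gm16754, which had at most 10 counts in a library against at least 600 for Keap1. Whether the counting used strand is not given in the sources used here.

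**Figure D2:**
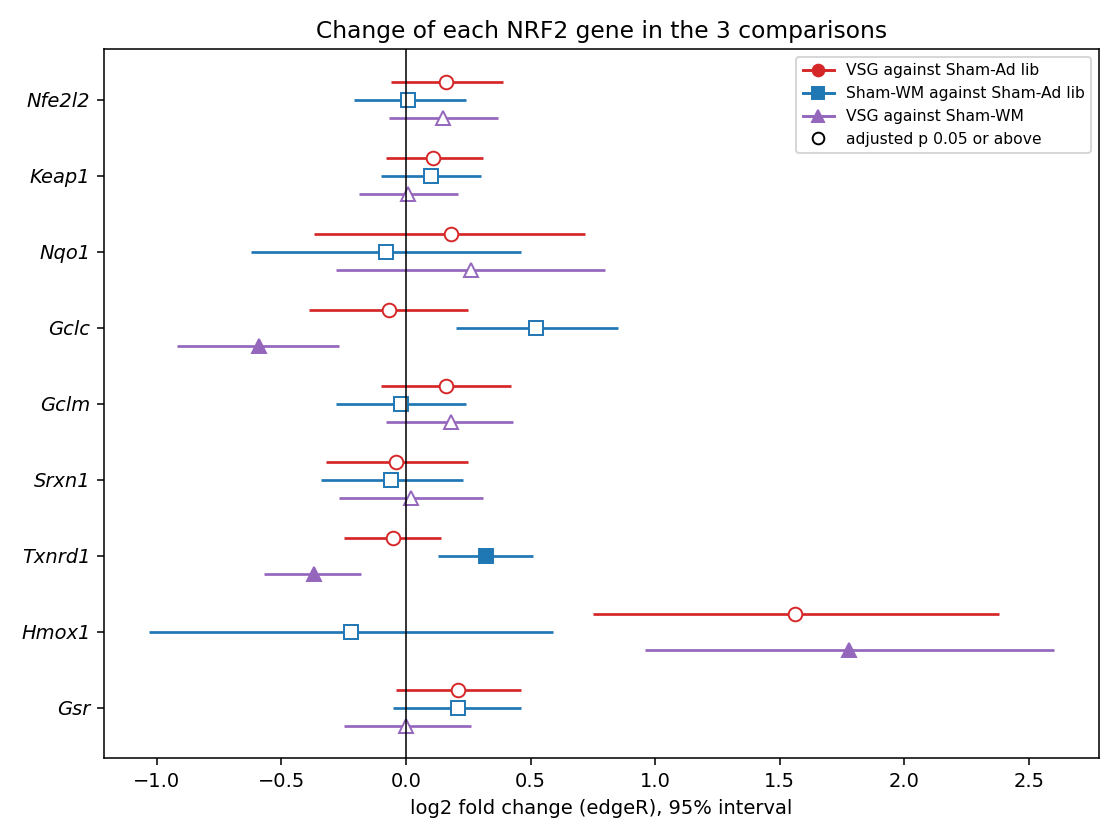
Log2 fold change (horizontal axis, edgeR, with its 95% interval) of the 9 tested genes (rows) in the 3 comparisons (colours and shapes), filled where the adjusted p was under 0.05. Only 4 markers are filled: Gclc, Txnrd1 and Hmox1 in VSG against Sham-WM, and Txnrd1 in Sham-WM against Sham-Ad lib, while the interval of Hmox1 in VSG against Sham-Ad lib (0.75 to 2.38) lies above 0 without passing the adjusted threshold.

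Gclc (ENSMUSG00000032350, chr9:77754535-77794485) encodes the catalytic subunit of glutamate-cysteine ligase, the rate-limiting enzyme of glutathione synthesis. Its level was 290, 231, 273 and 180 CPM in Sham-Ad lib libraries 3F, 4F, 6F and 10F. It was 315, 323, 347 and 415 CPM in Sham-WM libraries 2F, 9F, 15F and 16F, and 224, 233, 211 and 259 CPM in VSG libraries 1F, 8F, 11F and 18F. All 4 Sham-WM values were above every value of the other groups, which overlapped each other. Gclc was 33.7% lower in VSG than in Sham-WM by the fitted fold of 0.663 (95% interval 0.529 to 0.83; log2 fold change -0.59, SE 0.15, edgeR adjusted p = 0.013), lower in 4 of 4 libraries. Against Sham-Ad lib it was 1.44-fold higher in Sham-WM (1.15 to 1.8, edgeR adjusted p = 0.0532), which missed the threshold, and 0.953-fold in VSG (0.762 to 1.19, edgeR adjusted p = 0.806). The value for Sham-WM moved across the threshold with the processing. Over 20 alternatives its adjusted p ran from 0.0101 to 0.946 and was under 0.05 in 7. Among these were DESeq2 (0.0162) and the edgeR fits without library 3F (0.0484) or 11F (0.0466), the latter a VSG library outside this comparison. The call in VSG against Sham-WM was held in 18 of 20 alternatives, with adjusted p values from 0.00114 to 1.0. Among the 18 were the fits without a Sham-Ad lib library, which left both compared groups whole. The call was lost with 2 RUVs factors (log2 fold change -0.21, adjusted p = 0.568), and when groups followed the second label field (0.04, adjusted p = 1.0).

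Gclm encodes the modifier subunit of the same ligase and was not called in any comparison. Its mean levels were 251 ± 15.0 CPM for Sham-Ad lib mice, 248 ± 31.3 CPM for Sham-WM and 280 ± 32.2 CPM for VSG. Its log2 fold change in VSG against Sham-WM was 0.18 (95% interval -0.08 to 0.43, edgeR adjusted p = 0.293), an interval that does not reach the -0.59 of Gclc. The difference between the subunits was not tested. Exons of Gclm share 296 bases with Gm17494 on the other strand and 244 bases with the pseudogene Gm6061, with at most 10 and 0 counts a library against at least 4196 for Gclm.

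Gsr encodes glutathione reductase, which returns oxidised glutathione to its reduced form with NADPH. Mean levels were 54.9 ± 1.83 CPM for Sham-Ad lib mice, 63.3 ± 5.94 CPM for Sham-WM and 63.5 ± 10.3 CPM for VSG, with overlap between all groups. VSG and Sham-WM both gave a log2 fold change of 0.21 against Sham-Ad lib, with edgeR adjusted p values of 0.288 for VSG and 0.34 for Sham-WM. Slc7a11, the cystine carrier that feeds glutathione synthesis in many cultured cells, was close to undetected. It had 2 counts in all over the Sham-Ad lib libraries, 5 over Sham-WM and 9 over VSG, and no library had more than 6. No fold was read from these counts.

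Txnrd1 (ENSMUSG00000020250, chr10:82833951-82897712) encodes cytosolic thioredoxin reductase, which keeps thioredoxin reduced. It had 123.2, 130.0, 126.7 and 109.2 CPM in Sham-Ad lib libraries 3F, 4F, 6F and 10F. The Sham-WM libraries 2F, 9F, 15F and 16F had 155.7, 154.8, 154.4 and 145.7 CPM, and the VSG libraries 1F, 8F, 11F and 18F had 120.4, 123.5, 115.5 and 111.8 CPM. As for Gclc, the 4 Sham-WM values lay above all 8 others. Txnrd1 was 1.25-fold higher in Sham-WM than in Sham-Ad lib (95% interval 1.09 to 1.43; log2 fold change 0.32, SE 0.09, edgeR adjusted p = 0.047). It was 0.771-fold in VSG against Sham-WM (0.675 to 0.881; -0.37, SE 0.09, edgeR adjusted p = 0.00952). VSG and Sham-Ad lib differed by -0.05 (-0.25 to 0.14, edgeR adjusted p = 0.736). The call for Sham-WM against Sham-Ad lib was held in 6 of 20 alternatives, with adjusted p values from 0.00232 (DESeq2) to 0.977. Of the 12 fits that left out 1 library, it was held only without 11F (0.0336), a VSG library outside this comparison. The adjusted p lay between 0.0563 (without 18F) and 0.161 (without 10F) in the others, at log2 fold changes of 0.26 to 0.35. Every fit without a Sham-WM or Sham-Ad lib library lost the call (0.0643 without 4F to 0.161 without 10F). The call in VSG against Sham-WM was held in all 12 fits with a library left out, among them those without a Sham-Ad lib library, which left both compared groups whole. Over the 20 alternatives its adjusted p ran from 2.03e-05 to 1.0. It was lost with 2 RUVs factors (-0.42, adjusted p = 0.0705) and under the second label field (-0.07, adjusted p = 1.0).

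Of the hepatocyte markers, Alb and Cps1 moved in the same sense as Gclc and Txnrd1 in VSG against Sham-WM and Fgb in the opposite one. The 6 markers, Alb the most abundant and none at 0, were summed in each library. They stood at 110000, 103000, 117000 and 113000 CPM in Sham-Ad lib libraries 3F, 4F, 6F and 10F, and at 117000, 131000, 128000 and 144000 CPM in Sham-WM libraries 2F, 9F, 15F and 16F. In VSG libraries 1F, 8F, 11F and 18F they stood at 80600, 78600, 81000 and 118000 CPM. Of the 6 markers, Alb and Cps1 were lower and Fgb was higher in VSG than in Sham-WM, though Alb lost the call without 9F, 15F, 16F, 1F, 8F or 11F (edgeR adjusted p up to 0.0867). Against Sham-Ad lib edgeR called 0 of 6 in either group, with 1 at an unadjusted p under 0.05 in each, and DESeq2 called 0 in VSG and 1 in Sham-WM, Fgb, which was lower there (-0.65, DESeq2 adjusted p = 0.0404) and so ran opposite to Gclc and Txnrd1 in both comparisons with Sham-WM. In bulk tissue, fewer cells of a type and less RNA per cell cannot be told apart, and the part of these markers in the Gclc and Txnrd1 results was not tested. Library 18F, with hepatocyte markers at 118000 CPM, had the highest Gclc level of VSG (259 CPM) and the lowest Txnrd1 level.

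Srxn1, sulfiredoxin, repairs overoxidised peroxiredoxins. Its means were nearly equal, at 39.7 ± 5.99 CPM for Sham-Ad lib, 38.2 ± 6.19 CPM for Sham-WM and 38.8 ± 0.737 CPM for VSG. The largest of its 3 log2 fold changes in size was -0.06, for Sham-WM against Sham-Ad lib (95% interval -0.34 to 0.23). Nqo1 encodes NAD(P)H quinone oxidoreductase and is widely used as a readout of NRF2. It was low, between 78 and 151 counts a library, with means of 6.26 ± 1.01 CPM for Sham-Ad lib, 5.92 ± 1.02 CPM for Sham-WM and 7.11 ± 2.98 CPM for VSG. In VSG, 11F had 11.4 CPM and the other 3 between 4.44 and 6.54 CPM. Its log2 fold change in VSG against Sham-WM was 0.26 (95% interval -0.28 to 0.80, edgeR adjusted p = 0.47) and -0.05 without 11F. The interval with all libraries allows a rise of Nqo1 of up to 1.74-fold.

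Hmox1 (ENSMUSG00000005413, chr8:75093621-75100589) encodes heme oxygenase 1, which opens haem to biliverdin, carbon monoxide and iron. Its level was 12.4, 37.1, 15.4 and 19.3 CPM in Sham-Ad lib libraries 3F, 4F, 6F and 10F. It was 21.4, 15.8, 19.8 and 15.4 CPM in Sham-WM libraries 2F, 9F, 15F and 16F. In VSG libraries 1F, 8F, 11F and 18F it was 105.4, 71.9, 40.1 and 31.5 CPM. All 4 VSG values exceeded all 4 Sham-WM values, whereas 18F lay below 4F of Sham-Ad lib. Hmox1 was 3.44-fold higher in VSG than in Sham-WM (95% interval 1.95 to 6.08; log2 fold change 1.78, SE 0.38, edgeR adjusted p = 0.00579). Against Sham-Ad lib it was 2.96-fold in VSG (1.68 to 5.21; 1.56, SE 0.38), and the edgeR adjusted p of 0.0573 missed the threshold. Sham-WM and Sham-Ad lib differed by a log2 fold change of -0.22 (-1.03 to 0.59, edgeR adjusted p = 0.801), which became 0.21 without 4F.

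The test of Hmox1 against Sham-Ad lib turned on 4F and 18F. The edgeR adjusted p was 0.00816 without 4F and 0.0213 without 18F, at log2 fold changes of 1.99 and 1.78, and it was between 0.0585 and 0.191 without any other library. Over 20 alternatives it ran from 2.13e-05 (2 RUVr factors) to 0.999 and was under 0.05 in 5, among them DESeq2 (0.00214). With 2 RUVs factors the log2 fold change was 0.50 against Sham-Ad lib (adjusted p = 0.304) and 0.38 against Sham-WM (adjusted p = 0.144). The call against Sham-WM was held in 18 of 20 alternatives (adjusted p from 3.09e-06 to 1.0), all 12 fits with a library left out included. Of these fits, those without a Sham-Ad lib library left both compared groups whole, with a log2 fold change of 1.78 in each. The call was also lost under the second label field (0.28, adjusted p = 1.0).

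**Figure D3:**
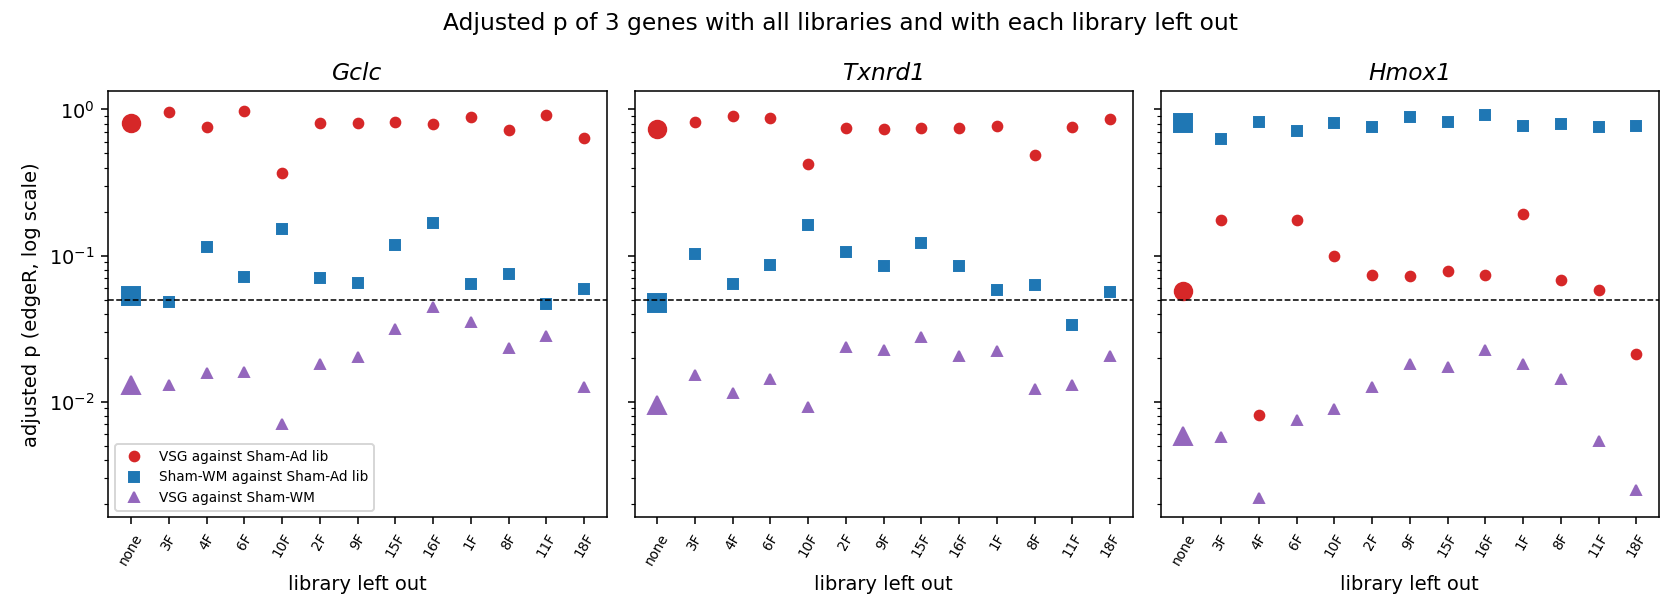
Adjusted p (vertical axis, edgeR, log scale) of Gclc, Txnrd1 and Hmox1 with all libraries (large markers, "none") and with each of the 12 libraries left out (horizontal axis) in the 3 comparisons, with 0.05 as the dashed line. All VSG against Sham-WM values lie under the line, and Hmox1 in VSG against Sham-Ad lib passes below it only without 4F (0.00816) or 18F (0.0213).

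Summed markers of macrophages and neutrophils moved with Hmox1. All 8 Kupffer cell markers were called higher in VSG than in Sham-WM (beside 15.0% of all genes). Clec4f and Vsig4, 2 of 8, were called higher in VSG than in Sham-Ad lib (beside 0.467%). Those 2 calls were held without 4F, 8F, 11F or 18F and lost without any other library (edgeR adjusted p up to 0.155), and DESeq2 called 7 of 8 there (beside 8.4% of all genes). None of the 8 was at 0, and Cd5l was the most abundant. Their summed level was 150, 465, 196 and 164 CPM in Sham-Ad lib libraries 3F, 4F, 6F and 10F, and 192, 181, 223 and 131 CPM in Sham-WM libraries 2F, 9F, 15F and 16F. In VSG libraries 1F, 8F, 11F and 18F it was 1330, 715, 625 and 480 CPM, the same order of libraries as for Hmox1. Of the single markers, Clec4f, Cd5l and Marco kept this order in VSG, and Vsig4, Timd4, Cd163, Adgre1 and Csf1r did not. Library 4F, with the highest Hmox1 of the 8 sham libraries, also had their highest Kupffer cell sum.

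Neutrophil markers numbered 6, led by S100a9, of which Ly6g was not tested and none was at 0 in all libraries. All 5 tested were called higher in VSG than in Sham-WM (beside 15.0% of all genes). In VSG against Sham-Ad lib 4 of 5 were called higher (beside 0.467%). There S100a8, S100a9, Mpo and Retnlg lost the call without 3F, 6F, 10F, 1F or any Sham-WM library (edgeR adjusted p up to 0.164). Their summed level was 0.725, 13.3, 0.595 and 2.2 CPM in Sham-Ad lib libraries 3F, 4F, 6F and 10F, and between 1.46 and 2.4 CPM in Sham-WM. It was 687, 283, 102 and 20.9 CPM in VSG libraries 1F, 8F, 11F and 18F, again in the order of Hmox1. Of 5 markers of recruited macrophages, Ccr2 and Ly6c2 were called higher in VSG than in Sham-WM (40.0%, beside 15.0% of all genes). Against Sham-Ad lib edgeR called 0 of 5 in VSG, with 2 at an unadjusted p under 0.05 (beside 24.1% of all genes), and DESeq2 called the same pair. Their sum, led by Spp1, was 128, 73.1, 66.1 and 52.1 CPM in VSG libraries 1F, 8F, 11F and 18F and between 28.5 and 78.0 CPM in the 8 sham libraries, with 4F the highest of those. Of the single markers, Ly6c2 kept the order of Hmox1 in VSG. Spp1, Ccr2 and Gpnmb did not, with Gpnmb highest in 18F (10.3 CPM). The part of these cells in the Hmox1 result was not tested.

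Red blood cell markers did not show this order. Their sum, led by Hbb-bs, was 367, 141, 727 and 256 CPM in VSG libraries 1F, 8F, 11F and 18F, and it ranged from 280 to 588 CPM in Sham-Ad lib and from 151 to 312 CPM in Sham-WM. Of these 5, edgeR called 0 in any comparison, with 1 at an unadjusted p under 0.05 (Alas2, Sham-WM against Sham-Ad lib, beside 21.6% of all genes), which DESeq2 called. Of 4 cholangiocyte markers, led by Sox9, and 4 sinusoidal endothelial markers, led by Clec4g, edgeR also called 0, with 1 of each 4 at an unadjusted p under 0.05 in VSG against Sham-WM, beside 40.4% of all genes, of which DESeq2 called 1, Krt19. Stellate cell markers (4 genes, led by Dcn) had 2 lower in VSG than in Sham-WM, Lrat and Reln, and Lrat was higher in Sham-WM than in Sham-Ad lib, a call lost without 3F, 4F, 6F, 10F, 15F, 16F or 8F (edgeR adjusted p up to 0.106). In VSG against Sham-Ad lib edgeR called 0 of 4, with 2 at an unadjusted p under 0.05, and DESeq2 called Reln, which was lower. All 3 adipocyte markers had 3 counts or fewer in every library.

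**Figure D4:**
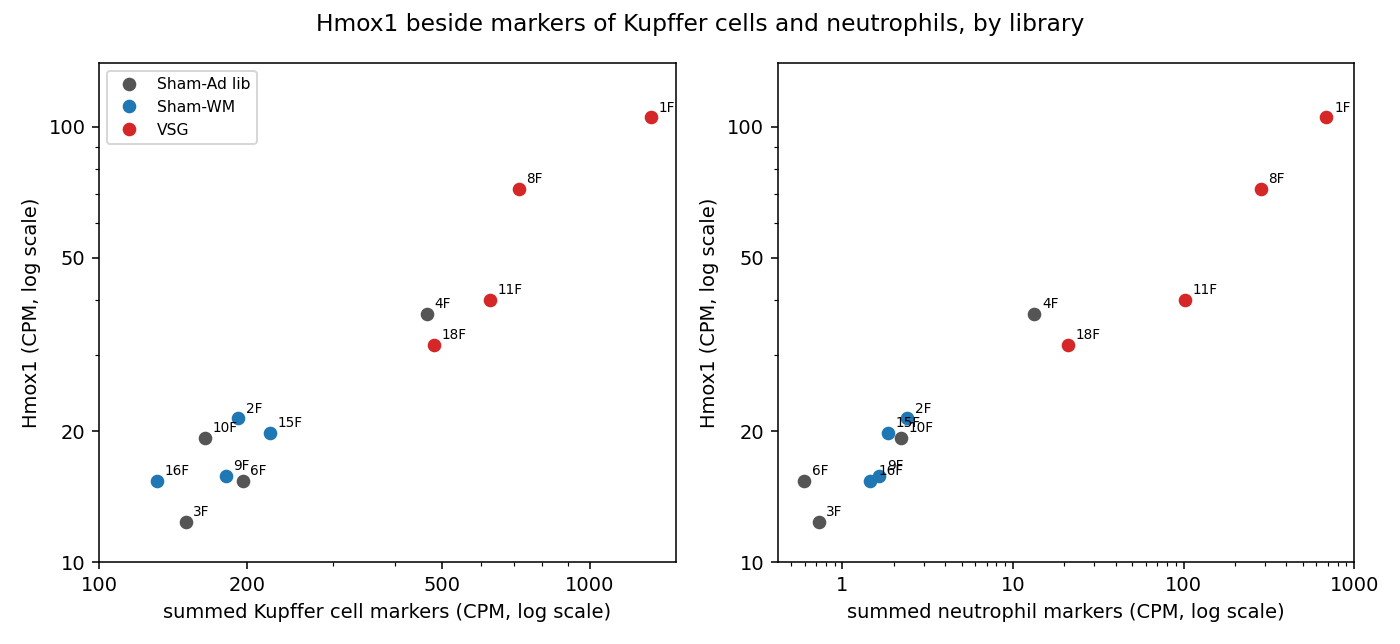
Hmox1 (vertical axis, CPM, log scale) against the summed level (horizontal axis, CPM, log scale) of 8 Kupffer cell markers, left, and 6 neutrophil markers, right, with 1 labelled point per library. In both panels the 4 VSG libraries and 4F of Sham-Ad lib lie above and to the right of the other 7 sham libraries. Those 7 lie at or below 21.4 CPM of Hmox1.

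The genes with the pattern most like a member over the 12 libraries were taken from the 13045 other tested genes by Pearson r of log2 CPM. For Hmox1 these were B430306N03Rik (r = 0.993), Rac2 (0.992) and Ighg3 (0.99), though the Sham-WM mean of Ighg3, 0.115 CPM, lay under the floor. For Gclc they were Uba6 (0.969), Acnat1 (0.944) and Clock (0.941). Mean levels of Clock were 29.2 CPM for Sham-Ad lib, 52.5 CPM for Sham-WM and 25.2 CPM for VSG. For Nqo1 they were Zfp956 (0.903), C130013H08Rik (0.899) and Nudt13 (0.897). These values describe 12 libraries that differ by group, and the highest of 13045 values are high by selection.

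The wider pathway was read from 6 lists with 72 genes, 71 of which were tested. In VSG against Sham-Ad lib edgeR called 0 of 71, with 26 at an unadjusted p under 0.05 (36.6%, beside 24.1% of all genes), and DESeq2 called 11 (beside 8.4% of all genes). In Sham-WM against Sham-Ad lib edgeR called 5 of 71 (7.04%, beside 6.99% of all genes), 2 higher and 3 lower, and DESeq2 called 12 (beside 10.4%). In VSG against Sham-WM edgeR called 19 of 71 (26.8%, beside 26.9%), 10 higher and 9 lower, and DESeq2 called 25 (beside 27.8%). With 2 RUVs factors 13 of these 19 edgeR calls were lost, and those of Maff, Gsta3, Pgd, Tkt, Idh1 and Slc40a1 were held. In fits of only the 2 groups compared 5 were lost, those of Mafk, Mafg, Gpx1, Prdx5 and Gsta2. The 5 calls in Sham-WM against Sham-Ad lib were held in both. In the lists below, calls are those of edgeR unless DESeq2 is named. Medians of the 71 log2 fold changes were 0.05, -0.02 and 0.09 in that order.

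**Figure D5:**
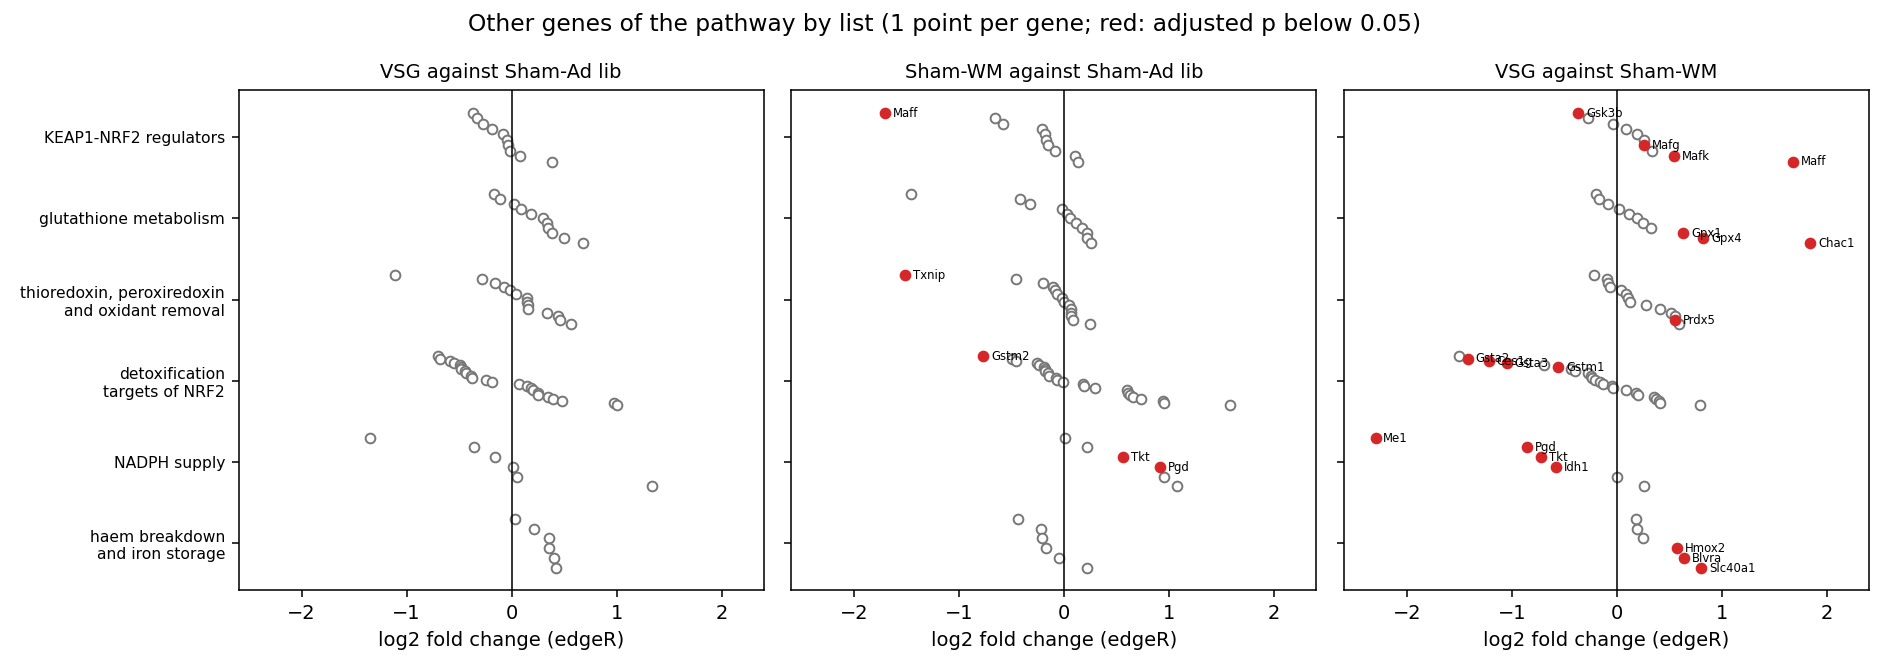
Log2 fold change (horizontal axis, edgeR) of each tested gene (points) of the 6 lists (rows) in the 3 comparisons (panels), red and named where the adjusted p was under 0.05. The middle panel has 5 red points and the right panel 19, with Me1 at -2.30 farthest to the left.

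Among partners and regulators of NRF2 (10 genes), 4 were called in VSG against Sham-WM (40.0%, beside 26.9% of all genes), of which 3 encode small MAF proteins, the partners that NRF2 needs on DNA. Maff had 8.26, 9.87, 10.3 and 7.91 CPM in Sham-Ad lib libraries 3F, 4F, 6F and 10F, 3.67, 3.99, 2.35 and 1.07 CPM in Sham-WM libraries 2F, 9F, 15F and 16F, and 8.13, 8.07, 7.76 and 11.7 CPM in VSG libraries 1F, 8F, 11F and 18F. All 4 Sham-WM values lay below all 8 others. Its log2 fold change was -1.71 in Sham-WM against Sham-Ad lib (SE 0.30, edgeR adjusted p = 0.00533) and 1.68 in VSG against Sham-WM (SE 0.30, edgeR adjusted p = 0.00245). Mafk (0.54, edgeR adjusted p = 0.0294) and Mafg (0.26, edgeR adjusted p = 0.0432) were also higher in VSG than in Sham-WM, and the kinase gene Gsk3b was lower (-0.37, edgeR adjusted p = 0.0282). Mafk lost the call without 2F, 15F, 16F or 1F (edgeR adjusted p up to 0.0859) and Gsk3b without 9F, 15F, 16F, 1F or 11F (up to 0.0812). Mafg kept it only without 6F or 11F (up to 0.114 without another). In Sham-WM against Sham-Ad lib DESeq2 called Maff and also Mafk (-0.59, DESeq2 adjusted p = 0.0192) and Bach1, a repressor at the same elements (-0.66, DESeq2 adjusted p = 0.0306), which were lower in Sham-WM. The list median was 0.22 in VSG against Sham-WM and -0.17 in Sham-WM against Sham-Ad lib, and 0 of the 10 were called in VSG against Sham-Ad lib by edgeR or DESeq2, with 3 at an unadjusted p under 0.05. Sqstm1, whose product p62 binds KEAP1, had the most counts of the list and was not called, with log2 fold changes of -0.02 in VSG and -0.21 in Sham-WM against Sham-Ad lib and 0.19 in VSG against Sham-WM.

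Genes of glutathione metabolism (11 tested of 12, Ggt1 not tested) had 3 called higher and 0 lower by edgeR in VSG against Sham-WM (27.3%, beside 26.9% of all genes). In VSG and in Sham-WM against Sham-Ad lib it called 0 of 11, with 3 and 1 at an unadjusted p under 0.05, and DESeq2 called 1 (Gpx1) and 0. Gpx4, which reduces lipid peroxides, had 280 ± 87.8 CPM in VSG and 158 ± 14.5 in Sham-WM (log2 fold change 0.82, SE 0.18, edgeR adjusted p = 0.00657). Gpx1, the main cytosolic glutathione peroxidase and the gene of the list with the most counts, had 2159 ± 823 and 1396 ± 96.7 CPM (0.63, SE 0.22, edgeR adjusted p = 0.0469). Its VSG values ran from 1300 in 8F to 3280 in 11F, and of the 12 fits with a library left out the call was held only in that without 8F (edgeR adjusted p from 0.00855 to 0.126). Without 11F the log2 fold change was 0.36 for Gpx1 and 0.62 for Gpx4, whose call was held in all 12 fits. Chac1, which breaks glutathione down, had 7.42 ± 4.39 and 2.07 ± 0.961 CPM (1.84, SE 0.60, edgeR adjusted p = 0.0367), a call lost without 2F, 15F, 16F or 18F (up to 0.103). Gpx1 differed by 0.68 in VSG against Sham-Ad lib (edgeR adjusted p = 0.0945, and 0.0434 without 8F) and by 0.05 in Sham-WM. The list median was 0.30, 0.05 and 0.19 in VSG and Sham-WM against Sham-Ad lib and in VSG against Sham-WM.

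Among 14 genes of thioredoxins, peroxiredoxins and oxidant removal, Txnip, whose product inhibits thioredoxin, was lower in Sham-WM than in Sham-Ad lib. It had 117.2, 95.6, 124.7 and 107.4 CPM in Sham-Ad lib libraries 3F, 4F, 6F and 10F and 43.9, 54.9, 37.6 and 18.6 CPM in Sham-WM libraries 2F, 9F, 15F and 16F. VSG libraries lay between 41.7 and 61.7 CPM. The log2 fold change was -1.52 in Sham-WM (SE 0.25, edgeR adjusted p = 0.00347) and -1.11 in VSG against Sham-Ad lib, where the edgeR adjusted p of 0.0513 missed the threshold and passed it without 4F or 18F (from 0.0211 to 0.181 over the 12 fits). DESeq2 called it there at an adjusted p of 0.000979. This comparison of Txnip was chosen after its values were seen. Prdx5 was the 1 gene of the list called in VSG against Sham-WM (7.14%, beside 26.9% of all genes), where it was higher (0.55, SE 0.19, edgeR adjusted p = 0.0436). The call was held only without 8F or 18F (from 0.0138 to 0.117 over the 12 fits), and the log2 fold change was 0.30 without 11F. DESeq2 called 3 there, Txn1, Prdx2 and Prdx5. In VSG against Sham-Ad lib edgeR called 0 of 14, with 5 at an unadjusted p under 0.05, and DESeq2 called only Txnip. Cat, catalase, had the most counts and was not called, with log2 fold changes of -0.28 and -0.07 in VSG and Sham-WM against Sham-Ad lib and -0.22 in VSG against Sham-WM.

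Of 24 detoxification targets of NRF2, edgeR called 4 lower and 0 higher in VSG than in Sham-WM (16.7%, beside 11.9% of all genes called lower and 26.9% called in either direction). DESeq2 called 8 there (beside 27.8% of all genes), among them Gstp1, which was higher by 0.76 (DESeq2 adjusted p = 0.0309, edgeR adjusted p = 0.0613). Gsta3, a glutathione transferase, had 1102 ± 338 CPM in VSG and 2275 ± 103 in Sham-WM (log2 fold change -1.05, SE 0.19, edgeR adjusted p = 0.00279). Gstm1 (-0.56, edgeR adjusted p = 0.0116), Gsta2 (-1.42, edgeR adjusted p = 0.0358) and the carboxylesterase Ces1g (-1.22, edgeR adjusted p = 0.00482) were the other 3. Gsta2 lost the call without 15F, 16F, 1F, 8F or 11F (edgeR adjusted p up to 0.101). Of the hepatocyte markers, Alb and Cps1 were also lower in VSG than in Sham-WM and Fgb was higher. Their part in these 4 calls was not tested. In Sham-WM against Sham-Ad lib edgeR called only Gstm2, at -0.77 (edgeR adjusted p = 0.0236), and it lost the call without 6F, 10F, 9F, 15F or 16F (up to 0.086). DESeq2 called 5 there (beside 10.4% of all genes), Gstm2 and also Gsta3, Gsta4, Cbr1 and Ces1g, which were higher in Sham-WM. In VSG against Sham-Ad lib edgeR called 0 of 24, with 10 at an unadjusted p under 0.05 (41.7%, beside 24.1% of all genes). DESeq2 called 6 there, beside 8.4% of all genes. The gene family of glutathione transferases is rich in near copies, so reads of its members may have been split or shared by the counting. The list median was -0.21 and -0.04 in VSG and Sham-WM against Sham-Ad lib and -0.19 in VSG against Sham-WM. Mgst1 had the most counts and was not called, with log2 fold changes of 0.25, -0.15 and 0.40 in the same 3 comparisons. The value in VSG against Sham-WM ran from 0.057 to 0.524 over the 12 fits with a library left out. Library 11F had 5450 CPM of Mgst1, and the other VSG libraries had 2380 to 2990 CPM.

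NADPH is the reducing power that Txnrd1, Gsr and Nqo1 use, and the list of its supply held 6 genes. In VSG against Sham-WM 4 of 6 were called lower (66.7%, beside 11.9% of all genes called lower), as were Gclc and Txnrd1, and 0 higher, with a list median of -0.65. The other 2, G6pdx (0.26, edgeR adjusted p = 0.659) and Taldo1 (edgeR adjusted p = 0.994), were not called. The hepatocyte markers Alb and Cps1 were also lower in VSG than in Sham-WM, and Fgb was higher. Their part in the NADPH results was not tested. Me1, malic enzyme, had 318, 293, 346 and 273 CPM in Sham-WM libraries 2F, 9F, 15F and 16F and 62.6, 45.2, 70.3 and 71.3 CPM in VSG libraries 1F, 8F, 11F and 18F (log2 fold change -2.30, SE 0.31, edgeR adjusted p = 0.000678). Its Sham-Ad lib values, at 68.1 to 250 CPM, overlapped those of VSG and lay below those of Sham-WM. Tkt (-0.72, edgeR adjusted p = 0.00139), Pgd (-0.86, edgeR adjusted p = 0.0112) and Idh1 (-0.58, edgeR adjusted p = 0.00541) were the other 3. In Sham-WM against Sham-Ad lib, Pgd (0.91, edgeR adjusted p = 0.0212) and Tkt (0.56, edgeR adjusted p = 0.0116), enzymes of the pentose phosphate pathway, were higher (33.3% of 6 called, beside 6.99% of all genes), and the list median was 0.73. DESeq2 also called Me1 there, which was higher in Sham-WM (0.95, DESeq2 adjusted p = 0.022, edgeR adjusted p = 0.0766). Pgd lost that call without 3F, 6F, 10F or 2F (edgeR adjusted p up to 0.0799). Idh1, with the most counts, differed by -0.36 in VSG and by 0.22 in Sham-WM against Sham-Ad lib and was not called by edgeR in either. In VSG against Sham-Ad lib edgeR called 0 of 6, with 3 at an unadjusted p under 0.05 and a list median of -0.08, and DESeq2 called 3 (beside 8.4% of all genes). These were Me1 (-1.38, DESeq2 adjusted p = 0.000794) and Idh1 (-0.39, DESeq2 adjusted p = 0.0134), which were lower, and G6pdx, the first enzyme of the pentose phosphate pathway, which was higher (1.33, DESeq2 adjusted p = 0.0279).

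Haem breakdown and iron storage (6 genes besides Hmox1) had 3 of 6 genes called higher (beside 15.0% of all genes) and 0 lower in VSG than in Sham-WM, with a list median of 0.41. Hmox2, the constitutive heme oxygenase, had 44.2 ± 4.92 CPM in VSG and 29.8 ± 2.61 in Sham-WM (log2 fold change 0.57, SE 0.11, edgeR adjusted p = 0.00391). Blvra, which reduces the biliverdin that Hmox1 makes, was higher by 0.64 (edgeR adjusted p = 0.0147; up to 0.0502 without 15F or 16F, which lost the call), and Slc40a1, the iron exporter ferroportin, by 0.80 (edgeR adjusted p = 0.00553). These genes ran in the same direction as Hmox1 and as the Kupffer cell markers above, whose part in them was not tested. In both comparisons with Sham-Ad lib, 0 of 6 were called by edgeR and by DESeq2, with 2 at an unadjusted p under 0.05 for VSG and 1 for Sham-WM. The ferritin light chain gene Ftl1 had the most counts and was not called, with log2 fold changes of 0.21 and -0.05 in VSG and Sham-WM against Sham-Ad lib and 0.25 in VSG against Sham-WM.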

How the data were processed

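Liver RNA of 12 mice was sequenced from poly(A)-selected directional libraries. Per the labels, TopHat2 2.1.1 placed the reads on mm10 and featureCounts assigned them to genes, and the whole-number counts deposited by the authors were used as given. The annotation release and strand setting of the counting are not given in the sources used here. Of 46078 Ensembl genes 45229 matched GENCODE M21. Groups followed the animal number shared by title and library name. No pair of libraries was identical, and the lowest Spearman rho within a group was 0.963. Computed here with R 4.3.3: edgeR 4.0.16 on all 12 libraries, filterByExpr (minimum count 10, minimum total 15; 13054 genes kept), TMM scaling, quasi-likelihood tests in 3 contrasts and Benjamini-Hochberg adjustment. Log2 CPM used a prior count of 2. Floors cover counting error only. The study removed unwanted variation that it ascribes to batch with RUVSeq, in a form not stated. RUVs and RUVr (k = 2) were written here from their definitions. The code was tested on simulated data. Alternatives were DESeq2 1.42.0, upper quartile scaling, no filter, at least 10 counts in every library, only the 2 groups compared, RUVs, RUVr, groups by the second label field, and omission of each library in turn. Named genes are the members, called genes of each list (at most 5 per direction and comparison), the gene of each list with the most counts, and 3 genes most like Nqo1, Gclc and Hmox1. Outside this rule, Bach1, Txn1, Prdx2, Gstp1, Gsta4, Cbr1, G6pdx and Taldo1 were named after their values were seen. Members and lists were chosen with earlier results of these data known.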

Additional observations from a re-analysis of the deposited data

Results flagged for a closer look

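Libraries were compared within each group of 4 for the members, the list genes named and the summed markers, and a library was picked out where its gap to the nearest other, as a share of the group's range, passed the limit of Dixon's test for 4 values (the shares picked out were 0.849 or more). This held in 11 of 128 groups, and chance alone picks about 1 in 20. Among members it was Txnrd1 in Sham-WM, where 16F had 146 CPM and the others 154 to 156 CPM. Library 18F of VSG was the highest for Maff (11.7 CPM, next 8.13), Chac1 (14.0 CPM, next 5.67) and the summed hepatocyte markers (118000 CPM, next 81000). Library 4F of Sham-Ad lib was the highest for Chac1 (14.2 CPM, next 3.91), Gpx4 (225 CPM, next 192), and the summed markers of Kupffer cells (465 CPM, next 196), neutrophils (13.3 CPM, next 2.2) and stellate cells (336 CPM, next 251). Slc40a1 was highest in 15F of Sham-WM (152 CPM), and the summed red blood cell markers in 6F of Sham-Ad lib (588 CPM, next 325).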

How the results depend on the processing

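The members called in VSG against Sham-Ad lib, in Sham-WM against Sham-Ad lib and in VSG against Sham-WM numbered 0, 1 and 3. With DESeq2 they numbered 1, 2 and 3, without a filter on low counts 1, 0 and 3, with at least 10 counts in every library 0, 2 and 3, with 2 RUVr factors 1, 2 and 3, with 2 RUVs factors 0, 2 and 0, and with groups by the second label field 0, 0 and 0. Upper quartile scaling and fits of only the 2 groups compared left the counts at 0, 1 and 3, but with upper quartile scaling the member called in Sham-WM against Sham-Ad lib was Gclc and not Txnrd1. Leaving out each of the 12 libraries gave counts from 0 to 1, from 0 to 2 and from 3 to 3. Genes called over the whole table moved far more in VSG against Sham-Ad lib, where 98 became 1227 with DESeq2, 628 without a filter, 0 with at least 10 counts in every library (2755 at an unadjusted p under 0.05), 0 in the fit of 2 groups (2523 at an unadjusted p under 0.05), 8 with RUVs and 3034 with RUVr, and from 0 (without 6F, 2F, 9F or 1F, with 2126 to 3060 at an unadjusted p under 0.05) to 1089 (without 18F) with a library left out. In Sham-WM against Sham-Ad lib, 912 became 1433 with DESeq2, 1399 in the fit of 2 groups, 1724 with RUVs and 2188 with RUVr, and from 424 (without 16F) to 1311 (without 11F) with a library left out. In VSG against Sham-WM, 3509 became 524 with RUVs, 5513 with RUVr, 2234 without 15F and 2196 without 16F. Groups by the second label field gave 0 calls by edgeR in all 3 comparisons (465, 715 and 158 at an unadjusted p under 0.05, in the order above). The other scaling moved the median of all genes by less than 0.1 on the log2 scale.

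Signs of log2 fold changes also changed, in most cases for genes near 0 that were not called. In VSG against Sham-WM the sign changed with DESeq2 for Keap1 (-0.013), Srxn1 (-0.003) and Gsr (-0.017), with 2 RUVr factors for Gsr (-0.001) and without a filter for Keap1 (-0.008) and Gsr (-0.013). In Sham-WM against Sham-Ad lib it changed without a filter for Nfe2l2 (-0.006), and in VSG against Sham-Ad lib with upper quartile scaling for Sqstm1 (0.008). With 2 RUVs factors it changed in VSG against Sham-Ad lib for Nqo1 (-0.22), Gclc (0.24), Cat (0.036) and Mgst1 (-0.014), in Sham-WM against Sham-Ad lib for Nqo1 (0.041) and Hmox1 (0.12), and in VSG against Sham-WM for Keap1 (-0.099), Nqo1 (-0.26), Gsr (-0.098) and Cat (0.17). With groups by the second label field it changed in VSG against Sham-Ad lib for Nfe2l2 (-0.11), Nqo1 (-0.31), Gclm (-0.15), Srxn1 (0.012), Sqstm1 (0.16), Gpx1 (-0.17), Mgst1 (-0.18) and Ftl1 (-0.11). That grouping changed it in Sham-WM against Sham-Ad lib for Nfe2l2 (-0.077), Keap1 (-0.036), Gclc (-0.12), Srxn1 (0.029), Hmox1 (0.57), Maff (0.77), Sqstm1 (0.16), Gpx1 (-0.51), Txnip (0.55), Gstm2 (0.11) and Tkt (-0.17). In VSG against Sham-WM it did so for Nfe2l2 (-0.031), Nqo1 (-0.19), Gclc (0.038), Srxn1 (-0.017), Maff (-0.023), Mafk (-0.17), Chac1 (-0.030), Me1 (0.10) and Pgd (0.047). With each library left out, the ranges that crossed 0 in VSG against Sham-Ad lib were those of Nqo1 (-0.15 to 0.35), Gclc (-0.21 to 0.024), Srxn1 (-0.15 to 0.026), Sqstm1 (-0.077 to 0.023) and Mgst1 (-0.11 to 0.38). For Sham-WM against Sham-Ad lib they were those of Nfe2l2 (-0.036 to 0.048), Nqo1 (-0.20 to 0.014), Gclm (-0.081 to 0.037), Srxn1 (-0.16 to 0.047), Hmox1 (-0.40 to 0.21) and Ftl1 (-0.095 to 0.009), and in VSG against Sham-WM those of Keap1 (-0.054 to 0.050), Nqo1 (-0.053 to 0.42), Srxn1 (-0.086 to 0.098) and Gsr (-0.10 to 0.089). The other log2 fold changes of members, and of list genes in the comparisons for which the naming rule chose them, kept their sign in all alternatives. Beyond the label field, whose grouping differs by construction, the cause was not tested. Slc7a11, with at most 6 counts a library, did not pass the filter for depth and was not tested.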
